A study of Oryza sativa Japonica Group with 4 samples.

Results

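Ubiquitin-conjugating enzymes (E2 enzymes) of rice endosperm were examined at control and high temperature. The members were all transcript models whose description in the deposited table contained the words ubiquitin-conjugating enzyme, 78 of 67393 transcripts and 45 of 56797 gene IDs. In the cascade that marks proteins for degradation, an E1 enzyme activates ubiquitin, an E2 enzyme carries it on a catalytic cysteine, and an E3 ligase transfers it to the target. E2 enzymes help to set the type of ubiquitin chain that is built, and in plants they form a large family that acts in protein turnover, DNA repair and hormone signalling.

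The 4 poly(A) RNA-seq libraries came from developing grains of the cultivar Nipponbare, labelled as endosperm of the grain-filling stage. At 5 days after pollination the plants were placed in a climate room at 28°C by day and 22°C by night (control temperature, 2 libraries) or at 35°C by day and 28°C by night (high temperature, 2 libraries), with 12 h of day, and were sampled after 5 days. The methods state that seeds were collected and that RNA was taken from endosperm, and neither the labels nor the methods say whether the replicates came from separate plants, so p-values measure only the spread between these libraries.

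The libraries held 6395533 to 11492692 counted reads, and LOC_Os09g01000.1 together with LOC_Os09g00999.1 made up 8.51% and 25.9% of the control libraries and 35.2% and 10.05% of the high temperature libraries. Values of a temperature are given throughout in the order replicate 1, replicate 2. Across the 27358 transcripts tested, log2 values of control replicate 1 correlated as closely with high temperature replicate 2 (r = 0.936) as with control replicate 2 (r = 0.924), so the libraries did not separate by temperature. Reads of endosperm markers (glutelins, prolamins and granule-bound starch synthase, 46 transcripts, all with reads) summed to 282165 and 493515 CPM (reads scaled to a common library size) after scaling by the trimmed mean of M-values (TMM) in the controls, and to 266388 and 360186 at high temperature. Embryo and aleurone markers (oleosins and late embryogenesis abundant proteins, 32 of 36 with reads) summed to 1045 and 2303 CPM in the controls and 1737 and 1412 at high temperature. Markers of green pericarp (34 of 34 with reads) summed to 1354 and 1128 CPM in the controls and 1915 and 970.1 at high temperature. Each of the 3 sums overlapped between the temperatures, and their part in the results was not tested.

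The E2 family was broadly expressed. Of the 78 transcripts, 76 had reads and 73 of them, from 41 genes, had at least 1 CPM in at least 2 libraries, against 27358 (40.6%) of all transcripts. Both transcripts without a read, LOC_Os02g48920.1 and LOC_Os02g48950.1, carry IDs close to that of LOC_Os02g48910.1, which had 127 reads. The 3 transcripts with reads that missed the minimum were LOC_Os01g42040.1 and both models of LOC_Os02g02830. By the chromosome number in the IDs, 11 of the 45 genes lie on chromosome 1, 6 each on chromosomes 2 and 3, and the others on chromosomes 4 to 10 and 12. Of the 45 genes, 22 have 1 transcript model in the table, 16 have 2, 4 have 3 and 3 have 4. The transcripts were short, with a median length of 1155 bases against 1467 for all transcripts.

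Levels are given as RPKM (reads per kilobase of transcript, scaled to the library total), recomputed from the counts because the deposited column of control replicate 1 does not hold RPKM. Of the 78 members, 39 had a mean of at least 10 RPKM over the 4 libraries, against 7.02% of all transcripts. The most abundant member, LOC_Os06g30970.1, had 366.4 and 264.5 RPKM in the controls and 183.9 and 329.1 RPKM under heat (mean 286.0 ± 80.0, SD, n = 4). Genes are ranked here by their leading model, that of highest mean RPKM. By this rule LOC_Os06g30970 came first in each of the 4 libraries. The next gene by mean, LOC_Os04g57220, had 97.4, 84.9, 122.2 and 176.3 RPKM for model LOC_Os04g57220.2 in the same order, and ranked second in every library except control replicate 1, where it was 5th. Summed over its 4 models, LOC_Os04g57220 had more counted reads than LOC_Os06g30970 in every library, so which gene leads depends on how models are counted. Together these 2 genes took 24.7% and 33.9% of the E2 reads in the controls and 37.4% and 38.6% at high temperature. These shares also sum the reads of all models. Whether reads on shared exons were counted for more than 1 model is not given in the sources used here.

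Below them the order of the genes moved between libraries. LOC_Os03g57790.1 had a mean of 94.0 RPKM and ranked 3rd or 4th in each library. LOC_Os09g12570.1, the next by mean (79.9 RPKM), ranked from second in control replicate 1 (148.6 RPKM) to 9th in high temperature replicate 1 (38.8 RPKM), so its place among its neighbours was not fixed beyond the spread between libraries. The other 11 of the 15 most abundant genes had means from 29.8 RPKM (LOC_Os01g60360.1) to 72.3 RPKM (LOC_Os01g60410.3). In 25 of the 45 genes the leading model had a mean of at least 10 RPKM, and in 40 it had at least 1 RPKM.

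**Figure D1:**
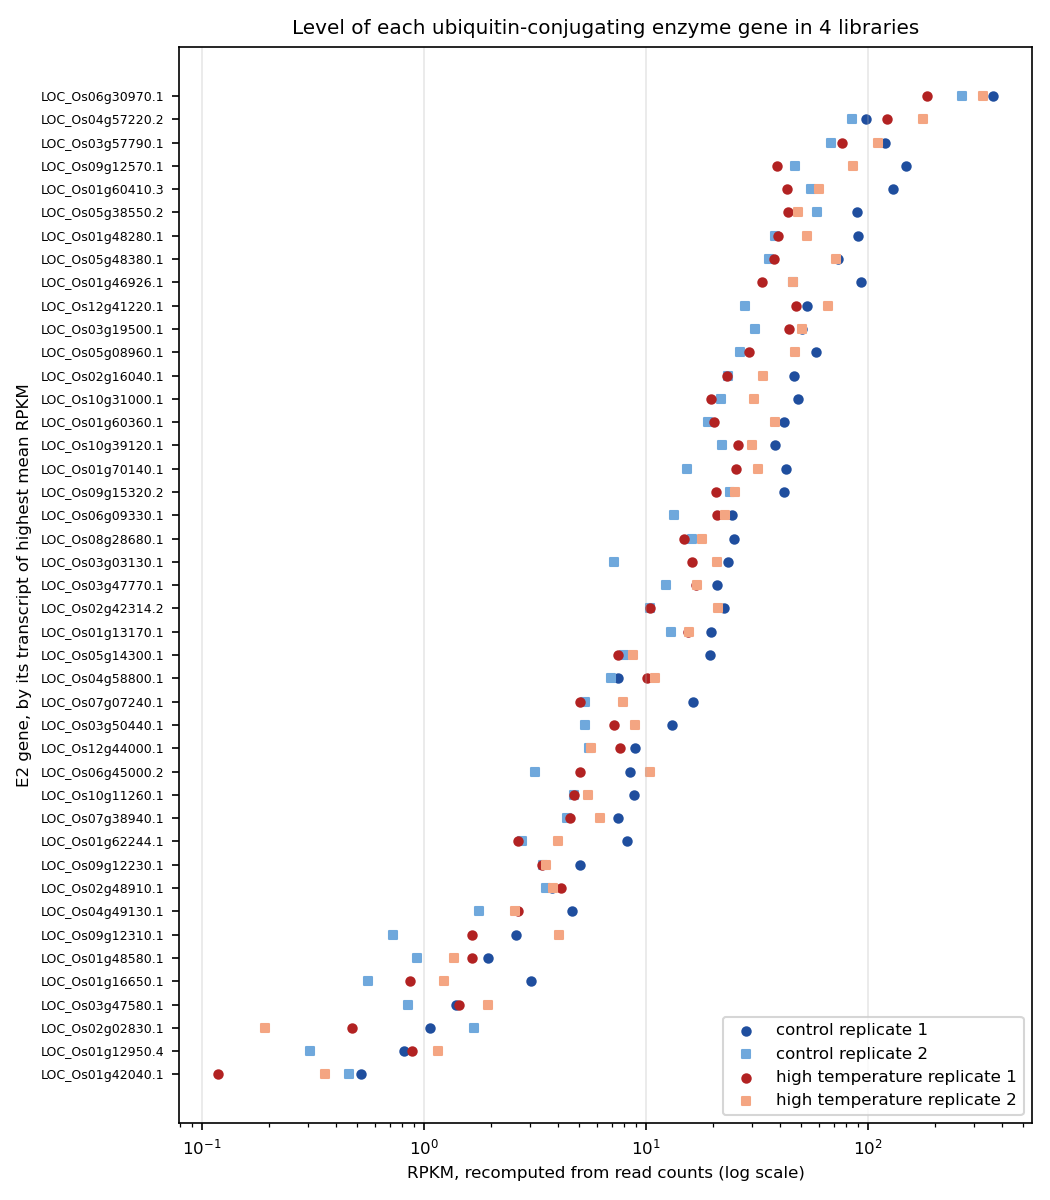
RPKM of the 43 E2 genes with reads, on a log scale, each by its transcript model of highest mean, with 1 point for each of the 4 libraries. LOC_Os06g30970.1 lies furthest right in each library, between 183.9 and 366.4 RPKM, and for many genes control replicate 1 (dark blue) lies right of the other libraries.

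The plot of levels also shows how much library scaling mattered. E2 reads were 0.348% and 0.196% of all reads in the controls, and 0.212% and 0.308% under heat. These shares were lowest in the pair of libraries with the largest share of LOC_Os09g01000.1 and LOC_Os09g00999.1. With those transcripts left out of the totals, E2 reads were 0.380% and 0.265% in the controls and 0.327% and 0.342% under heat. Control replicate 2 thus stayed lowest and control replicate 1 highest. After TMM scaling the E2 transcripts summed to 2643 and 2599 CPM in the controls and 2383 and 2749 CPM at high temperature, so the summed level overlapped between the temperatures. All values for the temperature comparison below are TMM-normalized CPM. In bulk samples, fewer cells of a type and less RNA per cell cannot be told apart.

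Whether E2 transcripts differed between the temperatures was tested by a quasi-likelihood fit of the counts in edgeR over all 27358 transcripts with Benjamini-Hochberg adjustment. No E2 transcript passed an adjusted p-value of 0.05, as none of all transcripts did (0% called), and the lowest adjusted p of the family was 0.606. At an unadjusted p under 0.05 there were 5 of 73 E2 transcripts (6.85%), close to the 6.94% of all transcripts. Of the 5, 2 were higher at high temperature (2.74%, background 4.15%) and 3 were lower (4.11%, background 2.79%). DESeq2 called 58 of all transcripts after adjustment and none of them was an E2 transcript, with 1 higher and 3 lower E2 transcripts at an unadjusted p under 0.05 (3.26% of all transcripts in either direction). The edgeR counts depended on single libraries, with 4 higher and 2 lower without control replicate 1, 5 and 10 without control replicate 2, 2 and 0 without high temperature replicate 1, and 1 and 0 without high temperature replicate 2. The share of all transcripts with an unadjusted p under 0.05 moved as well, to 7.38%, 11.5%, 4.13% and 4.31% in the same order.

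Log2 fold changes of high temperature over control, also called log2 differences, ran from -0.75 to 1.02, with standard errors (SE) of 0.26 to 0.73. Their median was -0.11, against 0.00 for all transcripts tested, and the median size of the change was 0.34, against 0.30. The size of the change reached 1 on the log2 scale in 1 of 73 E2 transcripts (1.37%), against 6.36% of all transcripts. These shares were not matched for level. Among transcripts with reads, the median of the mean RPKM was 11.4 for E2 transcripts and 1.14 for all. Only 28 of 73 (38.4%) had a log2 fold change above 0, against 50.2% of all transcripts. Models of a gene share exons, so the 73 are not independent measurements. Of 22 genes with more than 1 tested model, all models lay below 0 in 13, above 0 in 5 and on both sides in 4.

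**Figure D2:**
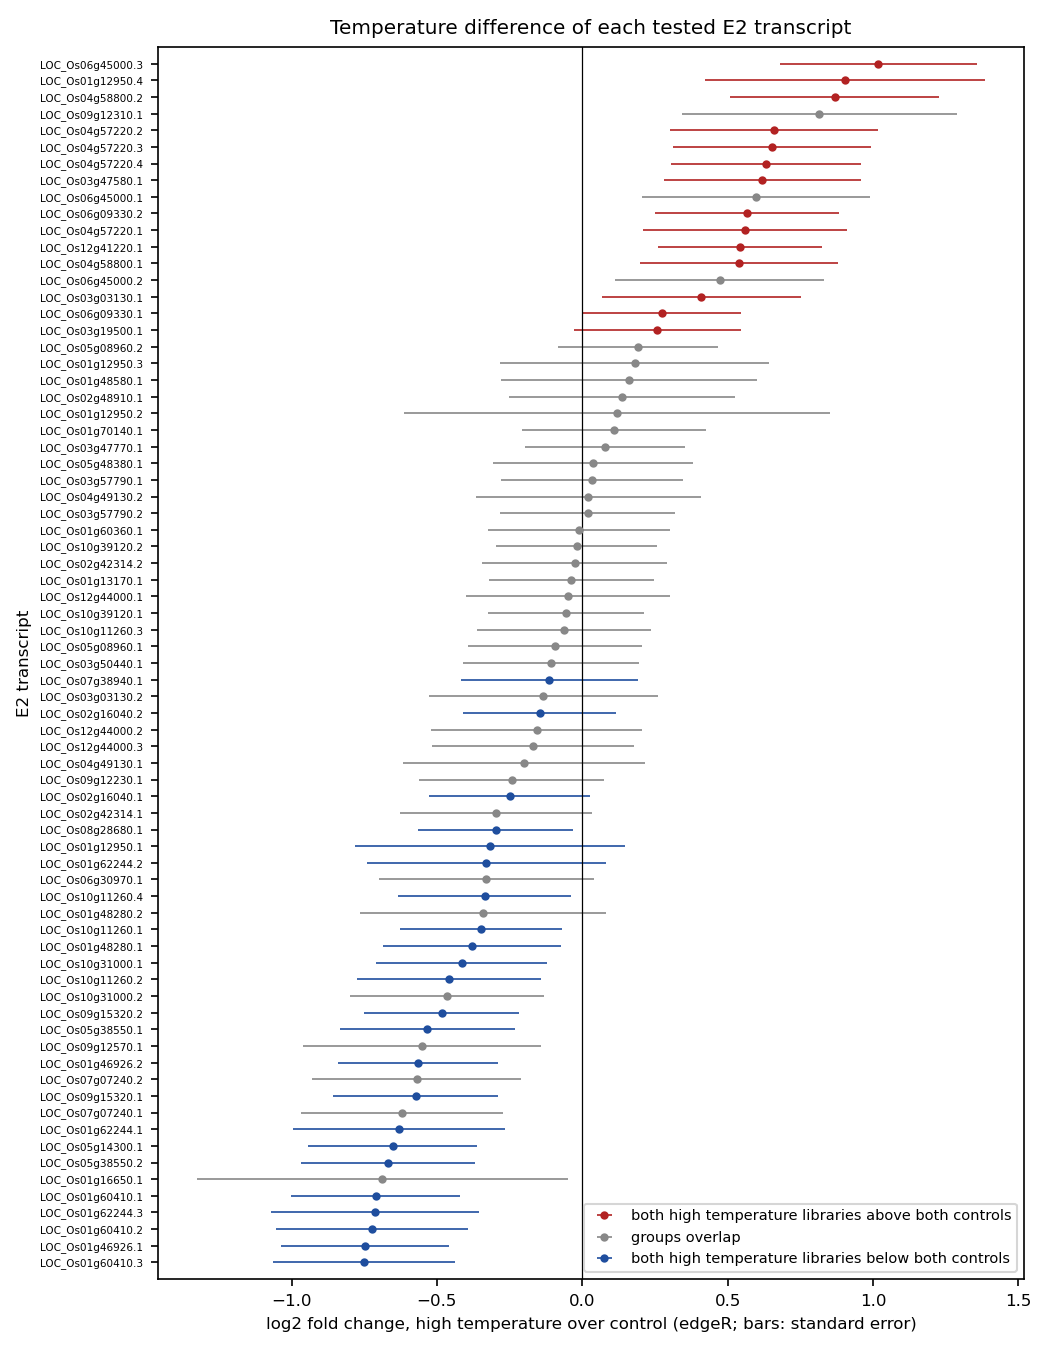
Log2 fold change, high temperature over control, of the 73 tested E2 transcripts from edgeR, with standard errors as bars. Red points are the 14 transcripts with both high temperature libraries above both controls, blue points the 23 with both below, and the values run from -0.75 to 1.02.

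Non-overlapping groups, with both heat libraries above both controls, were found in 14 of 73 E2 transcripts (19.2%, against 19.1% of all transcripts), and below them in 23 (31.5%, against 17.7%). The 14 belong to 9 genes and the 23 to 13 genes. With 1 transcript per gene the counts were 8 of 41 above (19.5%, against 19.7% of all) and 12 of 41 below (29.3%, against 17.1%). The lower side depended on the scaling. On CPM of library totals without TMM, 9 of 73 lay above (12.3%, against 12.6%) and 8 below (10.96%, against 9.08%). On both scalings, 8 transcripts lay above (10.96%, against 9.06% of all) and 6 below (8.22%, against 6.6%).

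The E2 transcripts with both high temperature libraries above both controls were led in abundance by LOC_Os04g57220. Its model LOC_Os04g57220.2 had 103.9 and 157.9 CPM in the controls and 193.0 and 220.6 CPM under heat. No high temperature value overlapped a control value, and the controls differed more from each other than the high temperature libraries did. The log2 fold change was 0.66 (standard error 0.36, adjusted p = 0.790, edgeR), which did not pass the test. It was 0.38 without control replicate 1 and 0.99 without control replicate 2. The other 3 models of the gene had log2 fold changes from 0.56 to 0.65 and the same order of libraries, and each of the 4 models held between 20.2% and 27.6% of the gene's reads in every library. All 4 models also lay above the controls without TMM.

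LOC_Os06g45000.3 had the largest log2 fold change of the family and the lowest p. It had 6.89 and 4.47 CPM in the controls and 10.1 and 13.4 CPM under heat. Both high temperature values lay above both controls, with a log2 difference of 1.02 (SE 0.34, unadjusted p = 0.0165, adjusted p = 0.606, edgeR). Without TMM the groups overlapped. The other models, LOC_Os06g45000.1 and LOC_Os06g45000.2, had log2 fold changes of 0.60 and 0.47, and their high temperature replicate 1 (7.93 and 8.94 CPM) lay below control replicate 1 (9.07 and 10.1 CPM). LOC_Os06g45000.3 took 26.4% and 24.5% of the gene's reads in the controls and 37.4% and 29.9% at high temperature. The division of shared-exon reads among models is not given in the sources used here, so a change of model was not tested.

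LOC_Os04g58800.2 was the other transcript with an unadjusted p under 0.05 and a higher value. It had 4.97 and 5.79 CPM in the controls and 12.4 and 7.12 CPM under heat. The log2 difference of 0.87 (SE 0.36, unadjusted p = 0.0414, adjusted p = 0.715, edgeR) rested on high temperature replicate 1, and was 0.41 without it. The second model, LOC_Os04g58800.1, had a log2 fold change of 0.54, again without overlap.

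A pair of single-model genes among the 15 most abundant also lay above the controls. LOC_Os12g41220.1 had 39.6 and 36.2 CPM in the controls and 52.6 and 57.9 CPM under heat, a log2 difference of 0.54 (SE 0.28, adjusted p = 0.777). LOC_Os03g19500.1 had 52.7 and 56.6 CPM in the controls and 68.5 and 62.1 CPM under heat, with a log2 difference of 0.26 (standard error 0.29, adjusted p = 0.913). In both genes the replicates of a temperature were close to each other, and neither difference passed the edgeR test. Without TMM the groups overlapped in both.

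On the lower side, LOC_Os01g60410 stood out by level, as the 5th E2 gene by mean RPKM of the leading model. LOC_Os01g60410.3 had 103.0 and 77.0 CPM in the controls and 50.9 and 56.1 CPM under heat. Its log2 fold change was -0.75 (standard error 0.31, unadjusted p = 0.0423, adjusted p = 0.716, edgeR), and it ran from -0.95 to -0.53 when 1 library was left out. LOC_Os01g60410.1 had 85.3 and 75.8 CPM in the controls and 47.7 and 50.7 CPM under heat, with a log2 difference of -0.71 (standard error 0.29, unadjusted p = 0.0406, adjusted p = 0.713). The remaining model, LOC_Os01g60410.2, had a log2 fold change of -0.72. Without TMM only LOC_Os01g60410.1 of the 3 kept both high temperature values below both controls.

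LOC_Os01g46926.1 had the lowest p of the members that were lower at high temperature. It had 72.4 and 63.1 CPM in the controls and 38.7 and 42.0 CPM under heat. The groups did not overlap (67.8 ± 6.64 against 40.3 ± 2.38 CPM, SD, n = 2 each), and the log2 fold change was -0.75 (standard error 0.29, unadjusted p = 0.0318, adjusted p = 0.686, edgeR). It stayed between -0.85 and -0.65 when any 1 library was left out. The second model, LOC_Os01g46926.2, had 45.2 and 40.4 CPM in the controls and 28.7 and 29.2 CPM under heat, with a log2 difference of -0.56, and overlapped without TMM.

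LOC_Os05g38550.2 showed the same order of groups, with 81.8 and 94.5 CPM in the controls and 59.0 and 51.8 CPM under heat. Its log2 fold change was -0.67 (standard error 0.30, adjusted p = 0.731, edgeR). Both models of LOC_Os05g38550 lay below the controls with and without TMM. LOC_Os01g48280.1 (77.5 and 56.9 against 49.9 and 53.5 CPM), LOC_Os02g16040.1 (35.9 and 31.6 against 26.4 and 30.4 CPM) and LOC_Os10g31000.1 (43.2 and 33.9 against 25.96 and 31.97 CPM) were lower without overlap only after TMM. Their log2 fold changes were -0.38, -0.25 and -0.42, each with a standard error of 0.28 to 0.31.

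**Figure D3:**
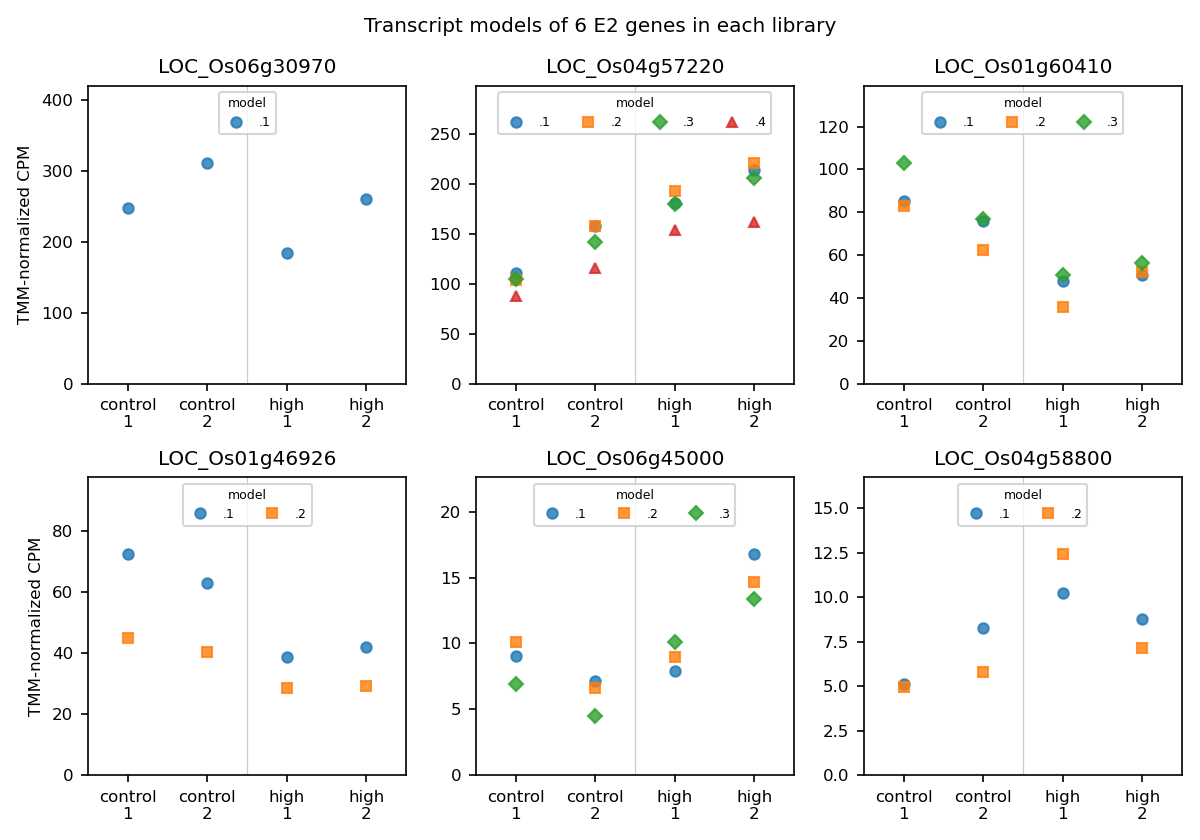
TMM-normalized CPM of every transcript model of 6 E2 genes, with 1 column of points per library and a marker shape per model. The 4 models of LOC_Os04g57220 lie higher in both high temperature libraries, those of LOC_Os01g60410 and LOC_Os01g46926 lie lower, and LOC_Os06g30970.1 overlaps between the temperatures.

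Other abundant members overlapped between the temperatures. LOC_Os06g30970.1 had 246.8 and 310.8 CPM in the controls and 183.5 and 260.1 CPM under heat, a log2 difference of -0.33 (SE 0.37, adjusted p = 0.914, edgeR), or -0.63 to -0.10 with 1 library left out (lowest without high temperature replicate 2). LOC_Os03g57790.1 was nearly level, with 128.2 and 127.6 CPM in the controls and 121.6 and 140.0 CPM at high temperature and a log2 difference of 0.03 (SE 0.31). LOC_Os05g48380.1, described as a protein containing a ubiquitin-conjugating enzyme domain, had 122.8 and 104.1 CPM in the controls and 92.7 and 140.0 CPM at high temperature. Its log2 fold change was 0.04 (standard error 0.34). LOC_Os09g12570.1 had 105.2 and 57.9 CPM in the controls and 40.7 and 70.8 CPM at high temperature, with replicates as far apart as the groups and a log2 difference of -0.55 (SE 0.41). It ran from -1.04 without high temperature replicate 2 to -0.060 without control replicate 1. LOC_Os05g08960.1 and LOC_Os01g60360.1 had log2 fold changes of -0.09 and -0.01.

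Across the 73 tested transcripts, the highest TMM-normalized value was in control replicate 1 for 27, in control replicate 2 for 16, in high temperature replicate 1 for 9 and in high temperature replicate 2 for 21. For all transcripts these shares were 25.5%, 25.1%, 26.1% and 23.3%. The lowest value was in high temperature replicate 1 for 29 of the 73 E2 transcripts (39.7%, against 23.9% of all transcripts). It was in control replicate 1 for 12 (16.4%, against 26.2%), in control replicate 2 for 14 (19.2%, against 24.9%) and in high temperature replicate 2 for 18 (24.7%, against 24.9%). The part of single libraries in these counts was not tested.

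A few descriptions name a class of E2, and these members were singled out by description, outside the naming rules. E2 W is named for the human UBE2W, which attaches ubiquitin to the N terminus of its targets. LOC_Os03g47770.1 (E2 W) had 15.03 and 15.39 CPM in the controls and 17.9 and 14.2 CPM under heat, with a log2 difference of 0.08 (standard error 0.27). The 3 models of the other E2 W gene, LOC_Os12g44000, had log2 fold changes from -0.17 to -0.05. E2 O is named for the human UBE2O, a large enzyme that combines E2 and E3 activity. LOC_Os05g14300.1 (E2 O) had 30.4 and 21.8 CPM in the controls and 17.3 and 16.1 CPM at high temperature, lower without overlap only after TMM, with a log2 difference of -0.65 (SE 0.29, adjusted p = 0.731, edgeR). LOC_Os01g70140.1 (E2-22 kDa) had 36.4 and 22.7 CPM in the controls and 32.2 and 31.8 CPM under heat, with a log2 difference of 0.11 (standard error 0.32).

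The variation of the family across libraries was described by the coefficient of variation (CV, the SD with n - 1 over the mean) of the recomputed RPKM over the 4 libraries, with the threshold of 0.2 that the study used. A CV below 0.2 was found in 5 of 76 E2 transcripts with reads (6.58%, against 8.83% of the 44411 transcripts with reads). Among transcripts with a mean of at least 1 RPKM the median CV was 0.343 for the E2 transcripts and 0.343 for all. With TMM factors 27 of 76 (35.5%, against 21.1% of all) were below 0.2, and the medians at 1 RPKM or more were 0.223 and 0.246. The shares below 0.2 cover transcripts of every level, and the share of all transcripts was not counted at a matched level. The count of 5 also became 27 without control replicate 1 and 15 without control replicate 2, and 7 without either high temperature replicate. The share of all transcripts was not counted with a library left out. Each of these CVs is also over fewer libraries, so the counts cannot show how far the result depended on a given library.

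The 5 lowest CVs at a mean of at least 1 RPKM belonged to transcripts of low or moderate level. LOC_Os02g48910.1 had 3.78 and 3.53 RPKM in the controls and 4.14 and 3.79 RPKM under heat, a CV of 0.0659. LOC_Os12g44000.2 (E2 W) had 6.32 and 6.30 RPKM in the controls and 5.39 and 6.09 RPKM at high temperature, a CV of 0.0724. Both held fewer than 100 reads in every library, and with TMM factors their CVs were 0.234 and 0.251. LOC_Os12g44000.3 had a CV of 0.102, or 0.219 with TMM. LOC_Os01g13170.1 had 19.7 and 13.0 RPKM in the controls and 15.4 and 15.6 RPKM at high temperature, with a CV of 0.175, or 0.107 with TMM. LOC_Os09g12230.1 had a CV of 0.206, or 0.145 with TMM. Only LOC_Os01g13170.1 and the scarce LOC_Os01g12950.3 (0.586 RPKM) were below 0.2 on both scalings, and the share of all transcripts below it on both was not counted.

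**Figure D4:**
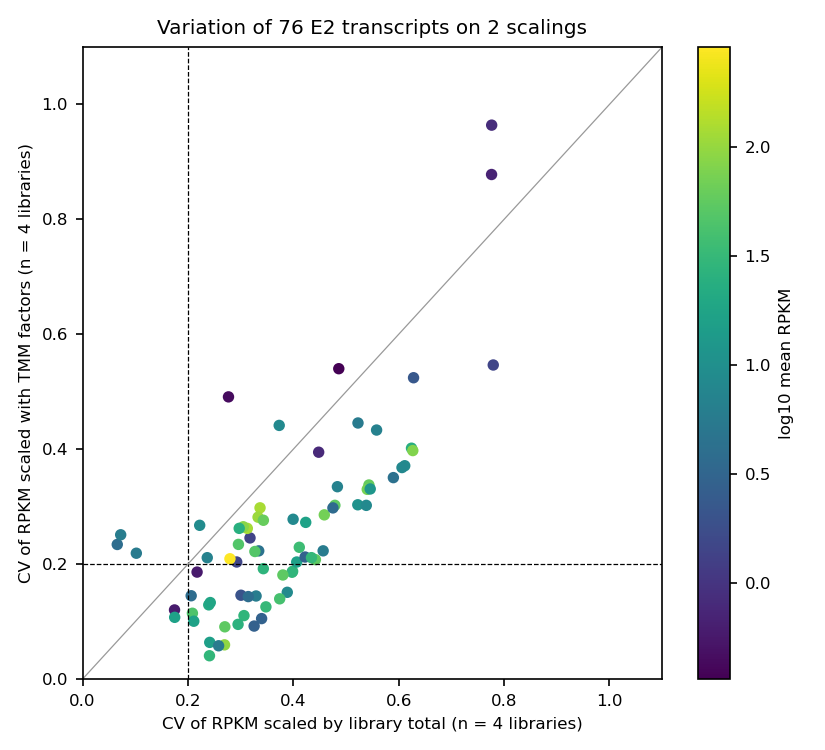
CV over the 4 libraries of the 76 E2 transcripts with reads, with RPKM scaled by library totals on the x axis and with TMM factors on the y axis, coloured by log10 of the mean RPKM. The dashed lines mark 0.2, and 5 points lie left of the vertical line, 27 below the horizontal line and 2 in both.

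With TMM factors some abundant transcripts had low CVs. LOC_Os10g39120.1 (mean 29.0 RPKM) had a CV of 0.0406, with 28.8 and 28.8 CPM in the controls and 28.8 and 26.5 CPM at high temperature. LOC_Os03g57790.1 (mean 94.0 RPKM) had a CV of 0.0596. The pair was chosen after the values were seen. The CVs of these transcripts on library totals were 0.241 and 0.269, both above the threshold, so which E2 transcripts counted as stable depended on the scaling.

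Other parts of the ubiquitin system were counted in the same fit, by words in the descriptions. The numbers below are of tested transcripts, 12 of 12 for E1 and 42 of 63 for ubiquitin. They are 28 of 61 for cullin, SKP1-like and U-box proteins, 78 of 82 for deubiquitinases and 55 of 60 for the proteasome. The full lists come from 4 genes for E1 and 41 for ubiquitin. They come from 54 for cullin, SKP1-like and U-box proteins, 60 for deubiquitinases and 39 for the proteasome. Here too, models of a gene are not independent measurements. None of the transcripts in these lists passed the adjusted threshold. The shares of all transcripts with an unadjusted p under 0.05 were 4.15% higher and 2.79% lower. Of 12 E1 transcripts, 0 had an unadjusted p under 0.05. Of 42 ubiquitin transcripts 5 were higher (11.9%) and 2 lower (4.76%) at that level. Of 28 cullin, SKP1-like and U-box transcripts 5 were higher (17.9%) and 0 lower, and of 78 deubiquitinase transcripts 2 were higher (2.56%) and 0 lower. Of 55 proteasome transcripts 0 were higher and 1 was lower (1.82%). The median log2 fold changes were -0.23 for E1, -0.08 for ubiquitin, -0.01 for these E3 parts, -0.06 for deubiquitinases and -0.25 for the proteasome, beside -0.11 for the E2 transcripts. Both high temperature libraries lay below both controls in 43.6% of the proteasome transcripts and above them in 3.64%, beside 17.7% and 19.1% of all transcripts. Without TMM, 3 of the 55 lay below (5.45%, against 9.08% of all) and 0 above, so the proteasome share also depended on the scaling.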

How the data were processed

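RNA-seq read counts of 4 rice endosperm libraries were analysed, 2 per temperature. The authors deposited 1 table of read counts per transcript model, described as uniquely mapped reads overlapping exons and not normalized. Beside them the authors deposited RPKM columns, treated here as a score, since in control replicate 1 the reads are multiplied by length instead of divided by it. The aligner and genome build are not given in the sources used here. NA cells (26717 to 29117 in 3 libraries) were read as 0, and 0 columns of values were left unused. RPKM was recomputed from counts and lengths (Python 3.11.15, pandas 2.3.3). Counts were tested with edgeR 4.0.16 in R 4.3.3 (TMM, quasi-likelihood, no replicate block, at least 1 CPM in at least 2 libraries, Benjamini-Hochberg adjustment), and standard errors were derived as the absolute log2 difference over root F. The common dispersion was 0.0746. Library totals set the depth, and 2 libraries per group limit every difference. The test was tried on simulated data.

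Transcripts were named by these rules: the 15 E2 genes of highest mean RPKM by leading model, up to 15 with an unadjusted p under 0.05, the 5 of lowest CV at a mean RPKM of at least 1, listed special classes and members without reads or below the minimum. Special classes could be sought in the descriptions only, and none of those listed was named there. Most descriptions give no class, so the family may still hold such members. Outside these rules, E2 W, E2 O and E2-22 kDa members were named for their descriptions, other models beside a named model of their gene, and LOC_Os10g39120.1 and LOC_Os01g12950.3 after their values were seen. The members and lists were chosen with earlier results of these data known. DESeq2 1.42.0, limma 3.58.1 on log2(RPKM + 1), upper quartile normalization, other filters, 1 transcript or 1 sum per gene, a replicate block and each library left out were the alternatives. Gene symbols and coordinates were not used here.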

Additional observations from a re-analysis of the deposited data

How the results depend on the processing

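Of all transcripts, 365 passed adjustment without the filter on low counts, 59 with limma, 58 with DESeq2, 42 without control replicate 1 and 345 without control replicate 2, and none in the remaining fits but 1. The count of 0 E2 transcripts held in each of them, and not in that 1, a crossed replicate block, which pairs control replicate 1 with high temperature replicate 2 and was chosen after seeing the data because same-numbered libraries deviated in opposite directions (r = -0.364). That fit called 1 E2 transcript among 828 transcripts, LOC_Os06g45000.3, with 9 higher and 10 lower at an unadjusted p under 0.05 (14.0% of all transcripts in either direction). With the labels' replicate numbers as a block (replicate block), 1 was higher and 0 lower at an unadjusted p under 0.05 (3.71% of all transcripts), and 0 passed adjustment. The count of higher transcripts at that level was 1 of 58 with a minimum of 5 CPM and 1 of 73 with DESeq2. The shares of all transcripts, in either direction, were 7.01% and 3.26%. The count of higher E2 transcripts was 0 of 43 with 1 transcript per gene, 0 of 42 with counts summed per gene and 0 of 73 with limma. In these fits the shares of all transcripts in either direction were 6.77%, 7.004% and 2.71%. The count of lower E2 transcripts was 6 without the filter on low counts (6.99% of all transcripts in either direction) and 0 with limma. Leaving out 1 library gave 1 to 5 higher and 0 to 10 lower. The median log2 fold change of the family stayed below 0 throughout, from -0.19 without high temperature replicate 2 to -0.051 without control replicate 1. Without overlap, 9 were higher and 8 lower on library totals, and 8 and 12 with 1 transcript per gene. Without the filter on low counts 13 of 76 were higher and 28 lower, and the share of all transcripts was not counted there. The count with a CV below 0.2 was 27 with TMM factors, 10 with the SD over n, 2 with 1 transcript per gene, and 7 to 27 with 1 library left out. Except with TMM factors, the share of all transcripts was not counted under these settings. The causes were not tested.

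Of the 287 values for the 23 named transcripts under alternatives, 272 kept direction and side of the threshold. Another 14 changed sign, and 1 passed adjustment, LOC_Os06g45000.3 with the crossed replicate block. In the fits where no transcript at all passed adjustment, the side of the threshold could not change. LOC_Os05g08960.1 had 0.019 with counts summed per gene. Leaving out 1 library turned the sign of 8 transcripts, LOC_Os05g08960.1 (-0.30 to 0.079), LOC_Os01g60360.1 (-0.35 to 0.25), LOC_Os02g48910.1 (-0.22 to 0.48), LOC_Os05g48380.1 (-0.32 to 0.30), LOC_Os12g44000.2 (-0.54 to 0.26), LOC_Os12g44000.3 (-0.46 to 0.12), LOC_Os01g13170.1 (-0.21 to 0.089) and LOC_Os03g57790.1 (-0.099 to 0.13). With 1 library left out, a group of 1 is assumed to vary like the other. Depth limits members with few reads, such as LOC_Os01g12950.2 with 31 reads in all.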
